A study of Rattus norvegicus with 8 samples.

Results

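The dual-specificity MAP kinase phosphatases are described here from mRNA of the rat striatum, as the 10 genes Dusp1, Dusp2, Dusp4, Dusp5, Dusp6, Dusp7, Dusp8, Dusp10, Dusp14 and Dusp16. They are 10 of the 17337 genes in the count data, and were chosen by name with the METH and saline values of these rats already known, so that their differences between the groups are given as a description, without a test. All 10 had enough counts to pass the filter on low counts, as did 12014 genes in all. The rats were male Sprague-Dawley rats labelled WT, with no transgene or deletion in either group, and every rat had catheter surgery and lever training. Ketamine and xylazine were given as anesthesia before the brains were taken. The METH group (n = 4) self-administered methamphetamine, a psychostimulant that raises extracellular dopamine, at 0.05 mg/kg per infusion for 2 h a day over 16 days, and the saline group (n = 4) self-administered saline on the same schedule. Rats were chosen for a stable rate of lever pressing, and their age and the time between the last session and tissue collection were not given in the sources used here. The comparison asks which transcripts of the striatum differ after voluntary intake of METH.

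MAP kinases (ERK, JNK and p38) are switched on when a MAP kinase kinase phosphorylates a threonine and a tyrosine in their activation loop. Dual-specificity phosphatases remove the phosphate from both residues and so switch the kinase off. In the striatum, dopamine and glutamate receptor signaling activates ERK in projection neurons, and ERK in turn drives the transcription of immediate early genes. Several phosphatase genes are themselves transcribed in response to MAP kinase activity and act as negative feedback. By where the proteins act and on which kinase, the members fall into the nuclear inducible enzymes (Dusp1, Dusp2, Dusp4 and Dusp5), the cytoplasmic ERK-selective enzymes (Dusp6 and Dusp7), the enzymes selective for JNK and p38 (Dusp8, Dusp10 and Dusp16) and the small atypical phosphatase Dusp14, which lacks the N-terminal domain that binds MAP kinases.

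The sequences just before the transcription start are shown for Dusp1, Dusp5 and Dusp6, 3 members with higher mean levels in METH rats, because they differ in the elements for activity-dependent transcription that they hold. Each is the 250 bases upstream of the RefSeq start in build GRCr8, 5′ to 3′ along the strand of the gene. Capitals mark matches to the cAMP response element (CRE) TGACGTCA, which binds CREB, to its shorter core CGTCA or TGACG, and to the CArG box, which binds the serum response factor.
Dusp1 (chr10:17184603-17184852, + strand): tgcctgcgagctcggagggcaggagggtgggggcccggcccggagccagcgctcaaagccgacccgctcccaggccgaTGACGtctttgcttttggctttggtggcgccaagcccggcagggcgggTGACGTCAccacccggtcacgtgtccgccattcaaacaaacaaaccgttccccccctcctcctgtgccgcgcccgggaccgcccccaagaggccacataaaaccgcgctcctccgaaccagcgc
Dusp5 (chr1:262543524-262543773, + strand): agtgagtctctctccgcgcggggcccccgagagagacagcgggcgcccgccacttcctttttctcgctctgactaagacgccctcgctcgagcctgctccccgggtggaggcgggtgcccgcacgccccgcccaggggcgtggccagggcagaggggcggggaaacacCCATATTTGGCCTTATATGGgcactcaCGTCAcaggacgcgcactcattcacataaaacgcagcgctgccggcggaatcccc
Dusp6 (chr7:35979354-35979603, + strand): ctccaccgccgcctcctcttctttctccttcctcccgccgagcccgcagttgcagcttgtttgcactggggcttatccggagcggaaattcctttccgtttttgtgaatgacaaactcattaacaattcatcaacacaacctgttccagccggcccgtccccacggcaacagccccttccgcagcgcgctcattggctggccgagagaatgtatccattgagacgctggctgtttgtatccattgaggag
Dusp1 held a full CRE from base -124 to base -117 and a separate core at -172. Dusp5 held 2 adjacent CArG boxes, from -82 to -73 and from -72 to -63, with a CRE core at -55. Dusp6 held none of these elements in its window.

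Of the 10 members, 9 had such sequences, in 11 windows, and Dusp4 had none. Each element was searched on both strands, except the TATA box, which was searched on the strand of the gene, and the full CRE also counts as 2 cores, since it is the core read on each strand. The full CRE was found in 1.59% of all 33469 rat windows and among the members in Dusp1 alone. The core was found in 18.2% of all windows and in 5 of the 11 member windows, those of Dusp1, Dusp2 (at -9), Dusp5, Dusp16 (at -70) and 1 of the 3 start sites of Dusp14 (at -77). CArG boxes were found in 1.5% of all windows and among the members in Dusp5 alone. The TATA box TATAAA was in 8.06% of all windows and, read on that strand, in none of the member windows, while the GC box GGGCGG was in 30.5% of all windows and in 7 members. A match is a string of letters, not a site shown to be bound in these rats.

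The total count was 18135939 to 20832550 in the saline rats and 18520038 to 21211920 in the METH rats. Values are counts per 1000000 (CPM) after TMM scaling, on which 3 counts, taken as the floor of detection, correspond to 0.142 to 0.169 CPM. The 8 striatal projection neuron markers summed to 14020 to 14825 CPM in saline rats and 14765 to 18821 CPM in METH rats, so that the tissue label fits its markers. Saline 1 stood apart in 4 of 4 cortical excitatory neuron markers. Their sum was 75.3 CPM in saline 1, 3.35 to 4.06 CPM in the other saline rats and 3.74 to 13.5 CPM in the METH rats, and Tbr1 was read 69 times in saline 1 and 1 to 9 times elsewhere. METH 3 stood apart from the other METH rats on the first principal component (29.6 against 0.755 to 5.87). Results that rest on either rat are given with and without it. The summed markers of astrocytes, oligodendrocytes, microglia and endothelium overlapped between the groups, and 1 of 5 microglial markers, Cx3cr1, was called lower. The log2 fold changes (METH against saline) ran from -0.73 to -0.05 in the microglial and from -0.21 to -0.03 in the endothelial markers, all negative. Those of the astrocyte markers (-0.12 to 0.40) and the oligodendrocyte markers (-0.26 to 0.08) had both signs. The 3 choroid plexus markers summed to at most 5.78 CPM, with Ttr and Kl at 0 in some rats. In this whole tissue, fewer cells of a type and less RNA per cell cannot be told apart.

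**Figure D1:**
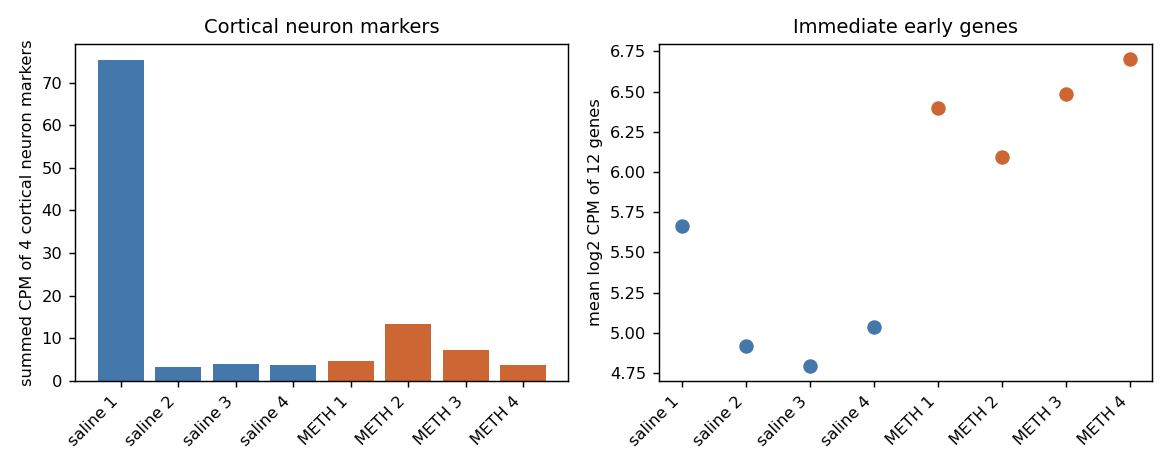
Left, the summed CPM of 4 cortical excitatory neuron markers in each rat. Right, the mean log2 CPM of 12 immediate early genes in each rat, with saline rats in blue and METH rats in orange. Saline 1 reached 75.3 CPM on the left and, at 5.66, was the highest saline rat on the right, while the METH rats lay between 6.09 and 6.70 on the right.

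Across the members, mean levels were higher in METH rats for 7 genes and lower for 3. In Dusp2, Dusp4, Dusp5 and Dusp14 every METH rat was above every saline rat, a separation found in that direction in 3.75% of all genes tested. In no member was every METH rat below every saline rat, against 2.65% of all genes tested, and the groups overlapped in 6 members. A gene was called at a false discovery rate (FDR) below 0.05 (edgeR quasi-likelihood test, adjusted by Benjamini-Hochberg) if its mean log2 CPM was above 1. Dusp4 and Dusp5 were called higher, where 0.449% of all genes tested were called higher and 0.0666% lower. As the members were chosen with these values known, nothing is read from these counts. The median log2 fold change (METH against saline) of the 10 members was 0.56, and that of all genes tested was -0.01. Without saline 1, every METH rat was also above every remaining saline rat in Dusp1 and Dusp6, and below them in Dusp7. Fewer rats separate more easily, and the share of all genes for this split is not given, so nothing is read from it.

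**Figure D2:**
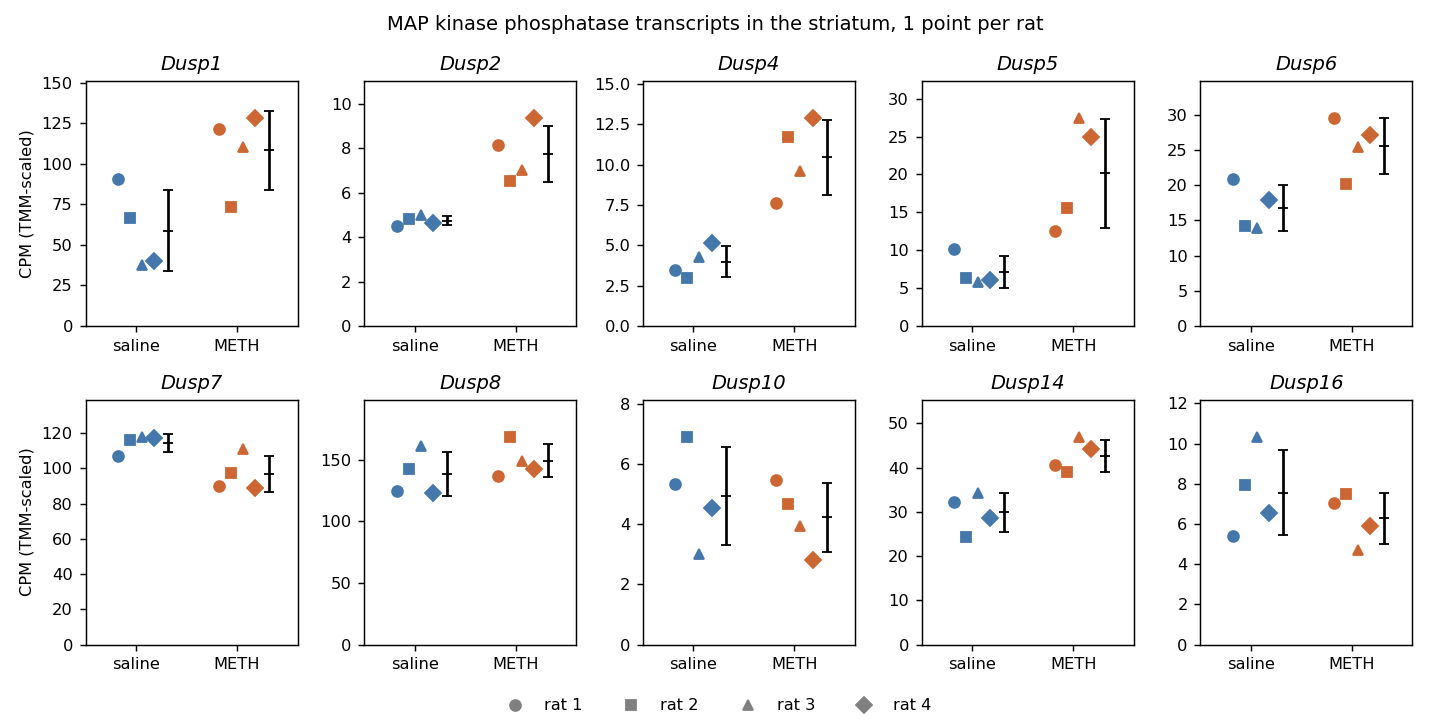
CPM of each phosphatase transcript in the 4 saline and the 4 METH rats, with 1 point per rat (the symbol gives the number of the rat) and the group mean ± SD in black. Each panel starts at 0 and has its own scale. The METH rats were apart from the saline rats in Dusp2, Dusp4, Dusp5 and Dusp14, and the highest saline point of Dusp1, Dusp5 and Dusp6 was rat 1.

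Among the nuclear enzymes, Dusp5, which acts on ERK in the nucleus, had the largest log2 fold change of the members. Its level was 10.2, 6.35, 5.84 and 6.05 CPM in saline 1 to 4 and 12.6, 15.6, 27.4 and 24.9 CPM in METH 1 to 4. The METH rats thus fell into a lower pair (METH 1 and 2) and a higher pair (METH 3 and 4), and the nearest rats of the 2 groups, saline 1 and METH 1, were close to each other. Saline rats averaged 7.11 ± 2.07 CPM and METH rats 20.1 ± 7.15 CPM (± SD, n = 4 each), a log2 fold change of 1.502 (standard error 0.25) or 2.83-fold. It was 1.72 without saline 1 and 1.32 without METH 3. In RefSeq the span of Dusp5 overlaps that of LOC134485251, so that reads of the overlap are uncertain, as the sequencing kit does not mark strand.

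Dusp4, a nuclear phosphatase of ERK and JNK, was a low-count transcript with 60 to 109 reads per saline rat and 156 to 246 reads per METH rat. It was at 3.46, 3.00, 4.30 and 5.15 CPM in saline 1 to 4 and at 7.64, 11.7, 9.60 and 12.9 CPM in METH 1 to 4. Every METH rat was above the highest saline rat, saline 4, and saline 1 was not set apart in this gene. Saline rats averaged 3.98 ± 0.950 CPM and METH rats 10.5 ± 2.31 CPM (± SD, n = 4 each), a log2 fold change of 1.39 (standard error 0.22) or 2.62-fold, which was 1.33 without saline 1 and 1.43 without METH 3.

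Dusp1, the classical immediate early phosphatase of p38, JNK and ERK, varied more among saline rats than any other member. Its level was 90.7, 66.3, 37.9 and 40.1 CPM in saline 1 to 4, a 2.39-fold range, and 122, 73.4, 110.5 and 128 CPM in METH 1 to 4. The groups overlapped, since METH 2 was below saline 1. Saline rats averaged 58.8 ± 24.9 CPM and METH rats 108.4 ± 24.4 CPM (± SD, n = 4 each), a log2 fold change of 0.89 (standard error 0.24) or 1.85-fold. Without saline 1, the rat with the cortical markers, the saline mean was 48.1 ± 15.8 CPM (SD, n = 3), the log2 fold change was 1.17 (2.25-fold), and the groups did not overlap. Without METH 3 it was 0.88. The part of cortical RNA in these values was not tested.

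Dusp2, a nuclear phosphatase best known from immune cells, was tightly grouped in saline rats at 4.50, 4.80, 4.98 and 4.63 CPM. In METH 1 to 4 it was at 8.12, 6.52, 7.0 and 9.33 CPM, each above every saline rat. The saline mean of 4.73 ± 0.206 CPM (SD, n = 4) had a spread of 4.36% between rats. Counting alone gives 9.02% at the mean count of all 8 rats, and more at the 82 to 103 reads of the saline rats. The saline SD thus understates the error of this gene. The METH mean was 7.74 ± 1.25 CPM (SD, n = 4), and the log2 fold change was 0.71 (standard error 0.18) or 1.64-fold. It was 0.69 without saline 1 and 0.76 without METH 3.

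The cytoplasmic ERK phosphatases Dusp6 and Dusp7 had fold changes of opposite sign. Dusp6, a feedback enzyme whose transcript follows ERK activity in many tissues, was at 20.9, 14.2, 13.9 and 17.9 CPM in saline 1 to 4 and at 29.5, 20.1, 25.4 and 27.1 CPM in METH 1 to 4. Only METH 2 overlapped the saline rats, as it was below saline 1. Saline rats averaged 16.7 ± 3.29 CPM and METH rats 25.5 ± 3.99 CPM (± SD, n = 4 each), a log2 fold change of 0.61 (standard error 0.15) or 1.53-fold, and of 0.73 without saline 1 or 0.61 without METH 3. Dusp7, a paralog that is less tied to ERK activity, was at 107, 116, 118 and 117 CPM in saline 1 to 4 and at 89.7, 97.3, 111 and 88.9 CPM in METH 1 to 4. METH 3 was the only METH rat within the saline range. Saline rats averaged 114 ± 4.97 CPM and METH rats 96.7 ± 10.1 CPM (± SD, n = 4 each), a log2 fold change of -0.24 (standard error 0.08) or 0.845-fold. It was -0.27 without saline 1 and -0.31 without METH 3. The span of Dusp7 overlaps that of the ribosomal protein gene Rpl29, so its counts carry the same uncertainty as those of Dusp5.

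The ratio of the 2 cytoplasmic enzymes within a rat does not depend on how libraries are scaled, and was computed after the values of both were seen. Per 100 reads of Dusp7 there were 19.5, 12.3, 11.8 and 15.3 reads of Dusp6 in saline 1 to 4 and 32.9, 20.6, 22.9 and 30.5 in METH 1 to 4. For Dusp4 there were 3.23, 2.59, 3.65 and 4.41 reads per 100 reads of Dusp7 in saline 1 to 4 and 8.52, 12.03, 8.67 and 14.5 in METH 1 to 4. Neither ratio overlapped between the groups, although for Dusp6 saline 1 and METH 2 were nearly level. Dusp4 alone also separated them. Both ratios were chosen with the values known and divide by a gene with a lower mean in METH rats, so nothing is read from their separation.

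In the JNK- and p38-selective enzymes the groups overlapped and their means differed by less than the SD of the saline rats. Dusp8, a phosphatase strongly expressed in brain, was at 125, 142, 161 and 123 CPM in saline 1 to 4 and at 137, 169, 149 and 143 CPM in METH 1 to 4, with overlapping groups. It averaged 138 ± 17.9 CPM in saline and 149 ± 13.7 CPM in METH rats (SD, n = 4 each), a log2 fold change of 0.11 (standard error 0.10), which was 0.05 without METH 2 and 0.20 without saline 3. Dusp16, selective for JNK, had 5.38, 7.95, 10.3 and 6.57 CPM in saline 1 to 4 and 7.05, 7.47, 4.69 and 5.90 CPM in METH 1 to 4. Its highest and its lowest value were both in rats numbered 3, one of each group, and its log2 fold change was -0.27 (standard error 0.22), -0.40 without saline 1, -0.08 without saline 3 and -0.15 without METH 3. Dusp10, which acts on p38 and JNK, had 53 to 138 reads per rat. It was at 5.32, 6.90, 2.99 and 4.54 CPM in saline 1 to 4 and at 5.48, 4.66, 3.95 and 2.79 CPM in METH 1 to 4, a log2 fold change of -0.22 (standard error 0.28), which was -0.02 without saline 2 and -0.40 without saline 3. The 95% interval of its fold change ran from 0.587 to 1.25. It held no change, a moderate decrease and a small increase. It was taken from the normal distribution, which makes it too narrow for 4 rats per group.

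The atypical phosphatase Dusp14, which can dephosphorylate MAP kinases and dampens T-cell receptor signaling, was at 32.2, 24.4, 34.3 and 28.5 CPM in saline 1 to 4. It was at 40.7, 38.9, 46.9 and 44.2 CPM in METH 1 to 4, and every METH rat was above every saline rat. Saline rats averaged 29.9 ± 4.36 CPM and METH rats 42.7 ± 3.6 CPM (± SD, n = 4 each), a log2 fold change of 0.52 (standard error 0.11) or 1.43-fold, which was 0.55 without saline 1 and 0.47 without METH 3. Its spread between METH rats was 8.44%, the smallest of the members. Its span overlaps that of the pseudogene Rps15a-ps2, and RefSeq lists a related copy, Dusp14l1, with no row of its own here, so that the count of Dusp14 may include reads of either.

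**Figure D3:**
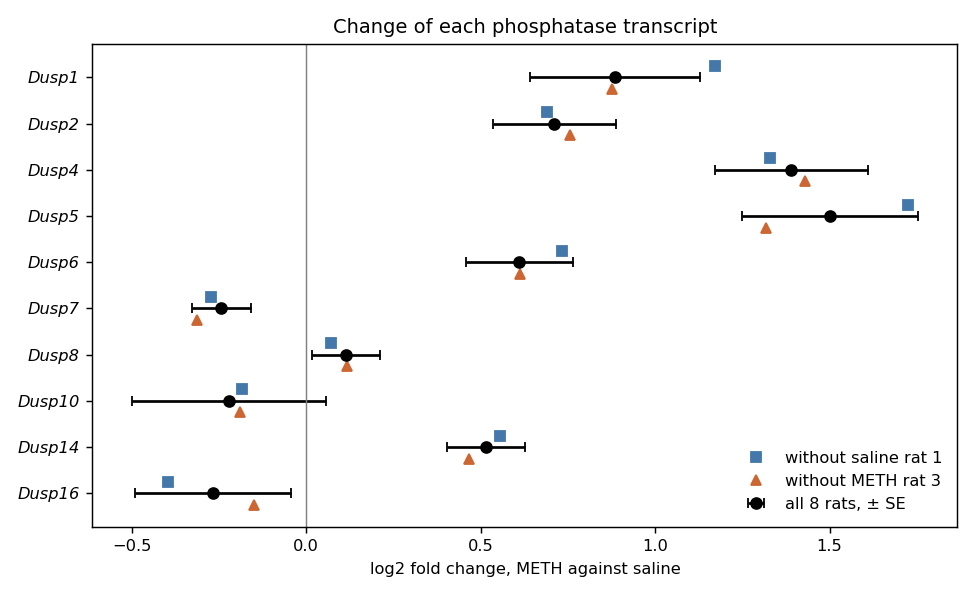
Log2 fold change of each phosphatase transcript in METH against saline rats, with all 8 rats (black, ± standard error), without saline 1 (blue squares) and without METH 3 (orange triangles). No member changed sign, and the points of Dusp1 moved most, from 0.89 to 1.17 without saline 1.

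Read together, the 10 transcripts summed to 405, 392, 394 and 354 CPM in saline 1 to 4 and to 459, 444, 495 and 487 CPM in METH 1 to 4. The sum was higher in every METH rat than in any saline rat, with averages of 386 ± 22.4 and 471 ± 23.7 CPM (SD, n = 4 each). The shares of some members in the sum also differed between the groups. Dusp7 held 26.4% to 33.1% of the reads of the members in saline rats and 18.3% to 22.4% in METH rats. Dusp5 held 1.48% to 2.52% in saline rats and 2.74% to 5.53% in METH rats, and the shares of Dusp1 overlapped (9.63% to 22.4% in saline rats and 16.5% to 26.5% in METH rats). These shares are of reads and are not corrected for transcript length. A higher share of one member lowers the shares of the others, and the CPM of Dusp7 overlapped between the groups. As the members were chosen with these values known, nothing is read from the sum or the shares.

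The members also varied from rat to rat within a group, which the choice of members by their group difference did not use. Each log2 CPM was expressed as a deviation from the mean of its group, and the correlations over these 8 deviations are descriptions, since the points share 2 group means and the composition of 8 libraries. With 1 rat left out, the group means were taken anew. With 2 rats left out, the deviations from the means of all 8 rats were kept, so that the 2 kinds of value are not strictly alike. Against the mean of 12 immediate early genes, which lay between 4.80 and 5.66 in saline rats and between 6.09 and 6.70 in METH rats (log2 CPM), Dusp6 followed most closely, with Pearson's r = 0.85 and Spearman's rho = 0.81. For Dusp6, r was 0.84 without saline 1 and METH 4, the 2 rats farthest from the median of the immediate early gene axis, and 0.75 without saline 1 alone. Dusp1 had r = 0.82 and rho = 0.81, but r = 0.59 without the same 2 rats. Dusp5 had r = 0.74 and rho = 0.71, and r = 0.41 without them.

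Dusp4, although among the members with the largest difference between the groups, had r = -0.10 (rho = -0.14) with the immediate early genes within groups, which was 0.17 without saline 1 and -0.32 without saline 1 and METH 4. Dusp2 had r = 0.25 (rho = 0.21), which was 0.71 without saline 1 and 0.11 without both rats. The values of these genes thus hang on which rats are included, and in part on how the group means were taken. Dusp14 had r = 0.37 (rho = 0.36) and Dusp10 r = -0.03 (rho = -0.12). Dusp8 (r = -0.71, rho = -0.67) and Dusp16 (r = -0.79, rho = -0.81) ran opposite to the immediate early genes, and both kept the sign without saline 1 and METH 4 (-0.81 and -0.82). Dusp7 had r = -0.43 (rho = -0.38), which turned to 0.26 without these 2 rats and thus rests on them.

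**Figure D4:**
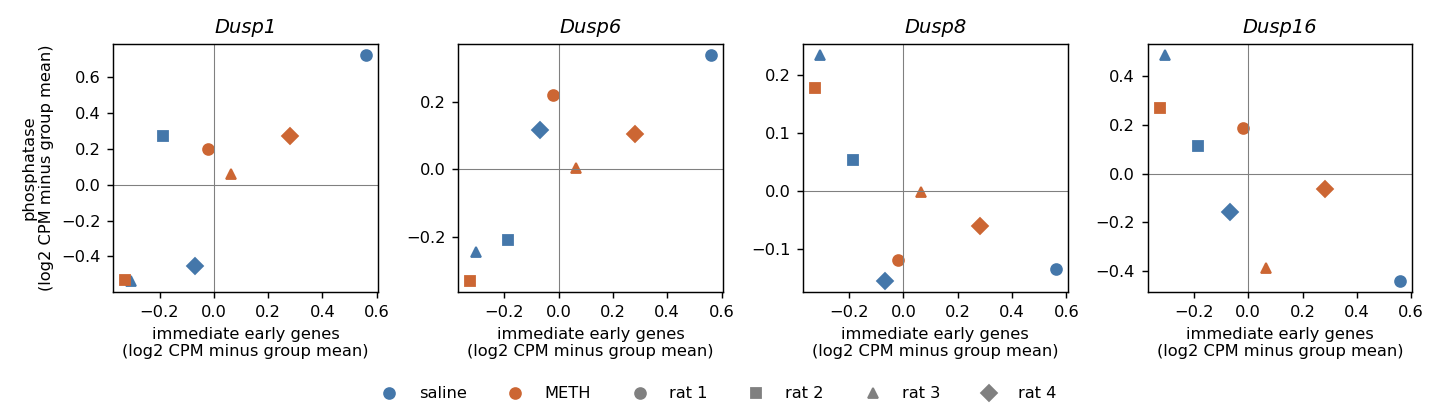
Deviation of Dusp1, Dusp6, Dusp8 and Dusp16 from their group mean (log2 CPM, vertical) against the deviation of the mean of 12 immediate early genes (log2 CPM, horizontal), 1 point per rat, with saline in blue and METH in orange. Dusp6 climbed from lower left to upper right (r = 0.85), Dusp8 and Dusp16 ran the other way (r = -0.71 and -0.79), and saline 1 lay at the right end of each panel.

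Among the 45 pairs of members, 24 had a positive and 21 a negative within-group r, with a median of 0.0103 and a range from -0.91 to 0.71. Neither sign prevailed among the pairs. The pair with the most negative value was Dusp6 and Dusp8 (r = -0.91, rho = -0.90), at -0.87 without METH 2 and saline 3 and -0.92 without saline 1. Dusp8 and Dusp16, both directed at JNK, had the most positive value (r = 0.71, rho = 0.71), which dropped to 0.19 without saline 3 and METH 2. Dusp1 and Dusp6 had r = 0.67 (rho = 0.67), and 0.29 without these 2 rats. Dusp2 and Dusp4, which both separated the groups, had r = 0.08 (rho = -0.10), with -0.19 without METH 4 and METH 2 and -0.52 without METH 4 alone. Dusp4 and Dusp5 had r = 0.13 (rho = 0.05), with -0.62 without METH 1 and saline 2, so that neither pair kept its sign. Among 10957 other genes tested, the within-group pattern of Dusp1 was most like those of Nudt16 (r = 0.99) and Hadhb (r = 0.97), and that of Dusp6 most like those of Itgb3bp (r = 0.96), Emc8 (r = 0.95) and Mrps17 (r = 0.95). Values of this size at the top of so many genes over 8 points say little about any single gene.

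The other genes of the MAP kinase pathway were taken from lists by role and tested over all 12014 genes by the edgeR quasi-likelihood test with Benjamini-Hochberg adjustment. Of all 12014 genes, 1338 had an unadjusted p below 0.05 in this test, in either direction. The counts at that threshold in the lists below are to be set beside this share. The kinases that the phosphatases act on showed no called difference. Of 11 MAP kinases tested, 0 were called, with 1 higher and 2 lower at an unadjusted p below 0.05 and 0 called by DESeq2 or limma-voom, and their median log2 fold change was -0.09. Erk1 (Mapk3) was at 167 ± 10.9 CPM in saline and 169 ± 5.06 CPM in METH rats (SD, n = 4 each). Jnk1 (Mapk8) was lower in every METH rat than in any saline rat, as were 2.65% of all genes tested. Its log2 fold change was -0.25 (standard error 0.10), with an FDR of 0.383. Mapk4, an atypical MAP kinase, had 0.21 (standard error 0.07, FDR 0.310). Of 6 MAP kinase kinases, 15 Raf and MAP kinase kinase kinases and 6 scaffolds tested, 0 were called and 0 were below an unadjusted p of 0.05, and DESeq2 and limma-voom called 0. Map2k4, an activator of JNK, had -0.24 (FDR 0.504), Map3k12 0.10 (FDR 0.596) and the JNK scaffold Mapk8ip1 0.12 (FDR 0.564).

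The phosphatases outside the 10 members showed no called difference either. Of 16 further genes of the DUSP name series and their pseudophosphatases, 15 were in the data and 10 passed the filter. None of the 10 was called by the quasi-likelihood test, DESeq2 or limma-voom, 2 were higher at an unadjusted p below 0.05 (Dusp18 and Dusp26), and the median log2 fold change was -0.06. Dusp18, an atypical phosphatase, was at 51.0 ± 4.22 CPM in saline and 58.8 ± 3.18 CPM in METH rats (SD, n = 4 each) (log2 fold change 0.20, FDR 0.401). Dusp9, a close relative of Dusp6 and Dusp7, had at most 1 read in any rat. Of 8 phosphatases of other families that act on MAP kinases, 0 were called by any of the 3 tools and 1 was higher at an unadjusted p below 0.05. That gene was Ptpn5, the striatal-enriched tyrosine phosphatase of ERK, at 1015 ± 49.3 CPM in saline and 1171 ± 94.9 CPM in METH rats (SD, n = 4 each), with every METH rat above every saline rat (log2 fold change 0.21, standard error 0.07, FDR 0.316).

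The called genes of these lists were immediate early genes and Phlda1. Of 12 immediate early genes, which ERK and CREB signaling switch on, 8 were called higher and 0 lower. Of all genes tested, 0.449% were called higher and 0.0666% lower. The lists were chosen with earlier results of these data known, so nothing is read from these counts. The median log2 fold change of the 12 was 1.56, with 9 higher at an unadjusted p below 0.05. Egr4 rose from 128 ± 18.6 to 405 ± 97.8 CPM (SD, n = 4 each; FDR 0.000188), Junb from 178 ± 54.1 to 501 ± 105 CPM (FDR 0.00172) and Nr4a1 from 80.2 ± 45.1 to 302 ± 19.0 CPM (FDR 0.00343). Fosb (log2 fold change 1.26, FDR 0.00306) and Egr1 (1.02, FDR 0.00369) also rose. Npas4 (1.63, FDR 0.0827), Egr3 (0.21, FDR 0.660), Ier2 (-0.24, FDR 0.787) and Btg2 (0.08, FDR 0.950) did not pass the test. In Npas4 every METH rat was nonetheless above every saline rat, as in 3.75% of all genes tested. With each rat left out, 7 to 9 of the 12 were called, and 8 without saline 1.

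The list of 7 Sprouty and Spred genes and Errfi1, whose proteins like the phosphatases restrain receptor and ERK signaling, had a median log2 fold change of 0.30 with 8 of 8 values positive. The share of all genes with a positive value is not given. This list too was chosen with earlier results of these data known, so nothing is read from the count of signs. By the quasi-likelihood test or limma-voom 0 of 8 were called, and DESeq2 called 2 (Spry2 and Spry4). The same 2 were the genes below an unadjusted p of 0.05. Spry2 was at 83.9 ± 8.27 CPM in saline and 108 ± 7.82 CPM in METH rats (SD, n = 4 each) (log2 fold change 0.36, standard error 0.09, FDR 0.117), and Spry4 had 0.67 (standard error 0.18, FDR 0.165). Of 12 kinases and transcription factors that MAP kinases act on, 0 were called (2 higher and 3 lower at an unadjusted p below 0.05), where DESeq2 called Srf and limma-voom called 0. Srf, the factor that binds CArG boxes, was at 172 ± 10.4 CPM in saline and 219 ± 13.9 CPM in METH rats (SD, n = 4 each) (log2 fold change 0.35, FDR 0.0720). Of 9 transcripts used as readouts of ERK output, Phlda1 was the only one called, higher in METH rats, at 59.7 ± 8.47 and 89.9 ± 8.22 CPM (SD, n = 4 each; log2 fold change 0.59, standard error 0.11, FDR 0.0232). Its call was lost without saline 2, saline 4, METH 3 or METH 4, with FDR up to 0.0823, and was kept without saline 1.

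**Figure D5:**
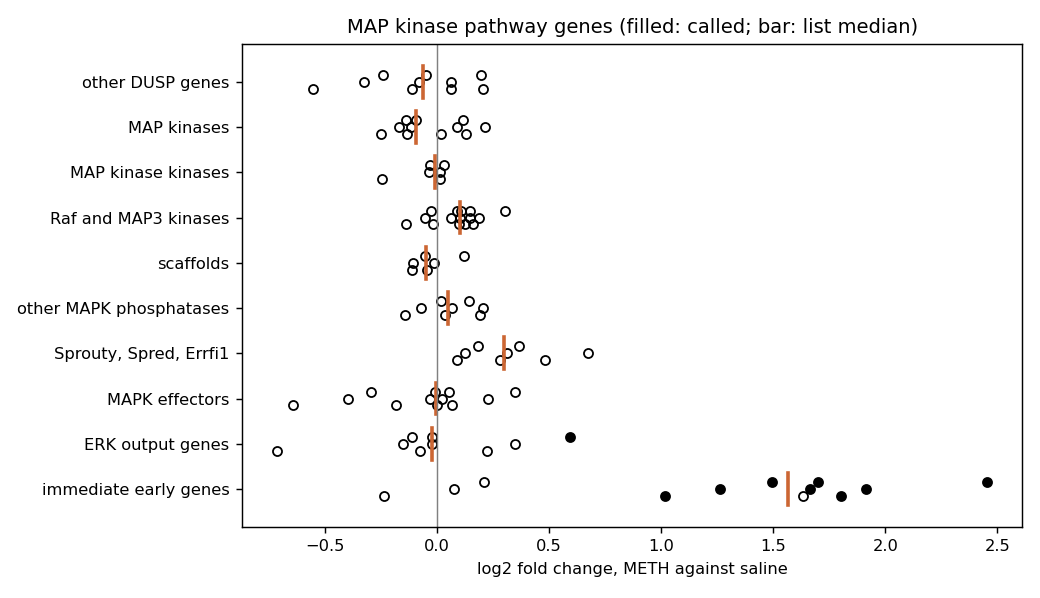
Log2 fold change, METH against saline, of each tested gene in 10 lists of the MAP kinase pathway (1 circle per gene, filled where called, with the list median as an orange bar). The filled circles were 8 immediate early genes and Phlda1. The medians of the lists of kinases lay between -0.09 and 0.10, and that of the immediate early genes was 1.56.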

How the data were processed

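Striatal poly(A) RNA of 8 rats was sequenced with a kit that does not mark strand. The authors removed adapters with cutadapt 1.18, mapped to rn6 with STAR 2.7.0e, counted reads per gene with featureCounts (Subread 1.6.4) and deposited raw counts, 1 column per rat. The strand setting and treatment of shared reads were not given in the sources used here. Counts were analysed with R 4.3.3 and edgeR 4.0.16: filterByExpr (minimum count 10), TMM, quasi-likelihood test and Benjamini-Hochberg adjustment over 12014 genes, with log2 CPM at a prior count of 2. DESeq2 1.42.0, limma-voom (limma 3.58.1), the likelihood ratio test, other scalings and filters, a replicate block and each rat left out were alternatives. The fit was tested on simulated data. The members and lists were chosen with earlier results of these data known. In each list the called genes were named (at most 5, by FDR) or otherwise the gene of lowest FDR. Mapk3, Mapk8, Spry4, Npas4, Egr3, Ier2, Btg2, Dusp9 and Dusp26 were named after their values were seen. P-values measure the spread between 4 rats per group. Upstream sequences came from RefSeq (GRCr8) and were matched by symbol. The small RNA and other experiments were not analysed here, and some genes that the rule names are not reported here.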

Additional observations from a re-analysis of the deposited data

Results flagged for a closer look

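Within each group of 4 rats, the gap between the outermost rat and its nearest neighbour was divided by the whole range of that group and set against Dixon's 95% value for 4 samples, which chance passes in about 1 in 20 groups. Of 20 groups of the phosphatase transcripts 1 passed it, and of 12 groups of library measures 2 did. The log2 CPM of Dusp5 in saline 1 had a share of 0.852, with 10.2 CPM against 5.84 to 6.35 CPM in the other saline rats. The summed CPM of the cortical neuron markers in saline 1 had a share of 0.990. The number of genes with counts in saline 2 had a share of 0.872, with 13410 genes, where the other saline rats had 13371 to 13376. Saline 1 was both the rat with the cortical markers and the saline rat with the highest Dusp5, and the link between the 2 was not tested.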

How the results depend on the processing

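The sign of the log2 fold change held for each of the 10 members under every alternative run. Among the other tests, limma-voom called 60 genes (51 higher, 9 lower) with 2 members, DESeq2 191 genes (141 higher, 50 lower) with 5 members (Dusp2, Dusp4, Dusp5, Dusp6 and Dusp14), and the likelihood ratio test 170 (131 higher, 39 lower) with 6 (Dusp1 added), all higher, against 62 (54 higher, 8 lower) with 2 in the quasi-likelihood test. With every gene of at least 1 count, 13 genes were lower. With each rat left out, 37 to 70 genes were called, 35 to 66 higher and 2 to 9 lower, with 1 to 3 members, all higher. Dusp4 was called in each of these fits, while Dusp5 lost its call without saline 2, saline 4 or METH 3, Dusp1 was called without saline 1, and Dusp14 without saline 3. The calls among the listed pathway genes were 7 to 10 in the same fits. The median within-group r of the pairs ranged from -0.0918 (without METH 2) to 0.0147, and without METH 3 or METH 4 it was -0.0337 or -0.0643. The rats of 1 number are different animals, and their deviations correlated at 0.0281, -0.231, -0.267 and -0.0064, so that the numbers did not pair them. The fit with the replicate block called 37 genes (35 higher, 2 lower), with 1 member, Dusp4, higher, and Phlda1 was not called (FDR 0.0928). Total-count scaling shifted the median of all genes to -0.0411. The cause of these differences was not tested. Depth limits Dusp2, Dusp4, Dusp10 and Dusp16 most. Counting alone gives them a spread of 8.39% to 10.5% at the mean count of all 8 rats, and more in rats with fewer reads.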
